A study of Macaca fascicularis with 44 samples.

Results

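The genes described here are 9 of the 21834 in the count table, chosen by symbol: the plasma protein genes AFP, TTR, TF, APOA1, APOB, FGB, FGG and RBP4, and HNF4A. All 9 symbols were found. The first 8 code for proteins that yolk sac endoderm, and later the liver, secrete into the circulation. HNF4A codes for a nuclear transcription factor and is not secreted, so it stands beside the others as a regulator of the same tissue. The genes were chosen because they are known as endoderm genes, and RBP4 also for its level in extravillous trophoblast, so their levels across cell classes are given as a description with no test.

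The counts came from 3682 single cells of 9 wild type cynomolgus monkey embryos, made by sperm injection and grown in vitro from the blastocyst, in 44 libraries. No treatment separates the groups, which differ by embryonic day: E16 (7 libraries), E18 (5), E20 (6), E21 (5), E22 (6), E23 (6), E24 (2) and E25 (5). Another 2 libraries, 26 and 27 with 149 cells, carry labels that name different days; they entered no group, and levels by embryo take them from the embryo that the deposited annotation gives. E16 holds 2 embryos and every later day holds 1, so a day, its embryo and that embryo's sex cannot be told apart. Extraembryonic tissue was removed at dissection, per the labels' protocols, yet most cells belong to extraembryonic classes. Library totals ran from 4393315 to 30568931 counts, and the median cell held 110457.5 counts.

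Before a liver exists, the endoderm of the yolk sac makes the embryo's first plasma proteins, which carry iron, retinol, thyroid hormone and lipid. Transcription of many of these genes is driven by HNF4A together with FOXA factors. In the adult, RBP4 carries retinol in the blood in a complex with transthyretin, the product of TTR. Of the 12 cell classes in the authors' annotation, the one named Endoderm holds 62 cells, and the annotation does not say whether they are of yolk sac or embryonic gut origin. Among markers of definitive endoderm, SOX17 (70.8 CPM, counts of a gene per 1000000 counts of the pooled cells), FOXA2 (64.4), CXCR4 (325) and CER1 (1182) had their highest level in this class, and EOMES (33.8) its second highest, after PS and derivative. GATA4 and GATA6, transcription factors of primitive endoderm, were low, with 1.66 CPM in 4 cells and 4.56 CPM in 12 cells. These markers do not tell yolk sac from gut endoderm, and the class is called Endoderm below.

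All 9 genes had their highest pooled level in Endoderm. AFP, alpha-fetoprotein, the main fetal plasma protein, had 1140 CPM there against 19.3 in epiblast (EPI), the next class. TTR, the carrier of thyroid hormone, had 8401 CPM against 85.4 in Neural ectoderm. TF, transferrin, the iron carrier, had 1013 CPM against 6.89 in Extraembryonic Mesoderm. For these carriers, and for the lipid and clotting genes below, Endoderm exceeded the next class by 59.1-fold to 181-fold.

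RBP4 was the exception among the secreted proteins. It had 921 CPM in Endoderm and 115 CPM in extravillous trophoblast (EVT), a ratio of 8.02, and 12.1 CPM in Extraembryonic Mesoderm, the third class. Mesoderm followed with 9.73 CPM, STB with 6.48, CTB with 4.16 and EXMC with 2.88, and the other 5 classes were at or below 1.97 CPM. Because EVT holds 566 cells, 54.3% of all RBP4 counts of the series lay in EVT and 33.99% in Endoderm. For the other secreted proteins, Endoderm held 78.7% (AFP) to 86.5% (TF) of all counts although it is 62 of 3682 cells.

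APOA1, the main protein of high-density lipoprotein, had 11072 CPM in Endoderm and 113 in Extraembryonic Mesoderm. APOB, the structural protein of chylomicrons and low-density lipoprotein, had 1284 and 10.3 CPM in the same classes. FGB, the beta chain of fibrinogen, had 1188 CPM in Endoderm and 6.56 in Neural ectoderm. FGG, the gamma chain of the same clotting protein, had 512 CPM in Endoderm and 4.07 in Mesoderm. HNF4A had 38.1 CPM in Endoderm (95% Poisson interval 33.8 to 42.9) and 0.952 in EPI, and 70.8% of its counts in the series were in Endoderm. The median of the 11 other classes was 24.4 CPM for APOA1, 22.5 for TTR and between 0.143 (HNF4A) and 3.22 (AFP) for the others. The class PS and derivative was lowest for 6 of the genes, with 0 counts of TF and RBP4 in 228 cells, which allows up to 0.105 CPM. Intervals and limits of this kind cover counting error only. Fewer expressing cells and less RNA per cell cannot be told apart in such pooled values.

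**Figure D1:**
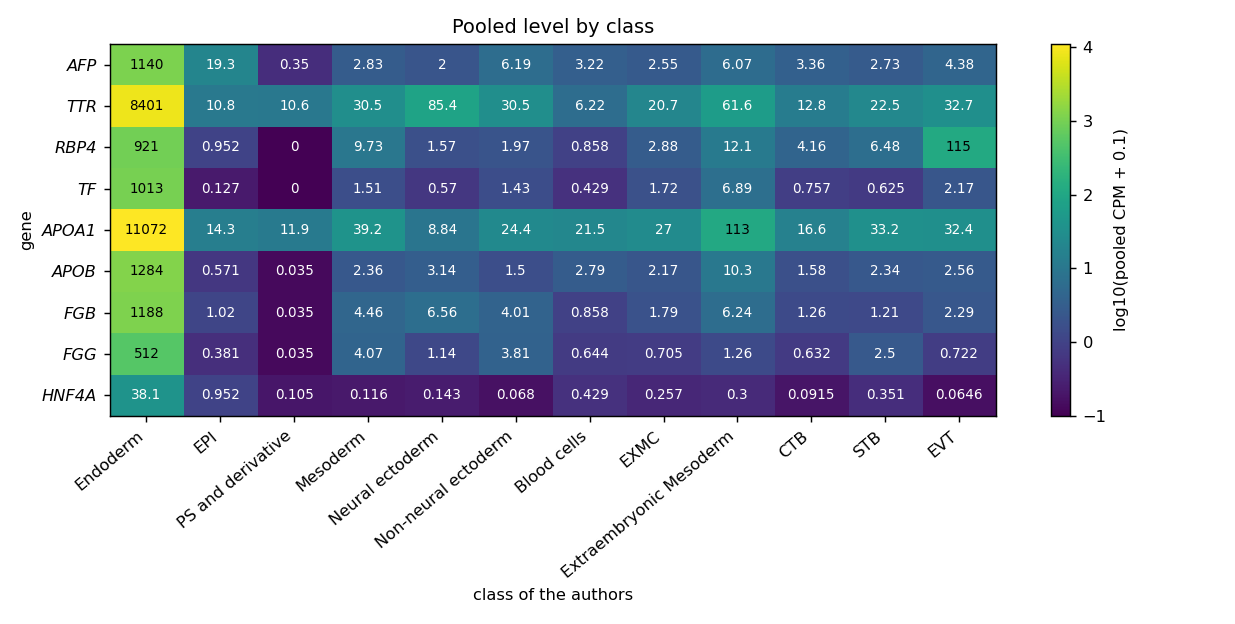
Pooled level of each of the 9 genes (rows) in the 12 classes of the authors (columns), printed in CPM and coloured by log10(CPM + 0.1). The Endoderm column is highest in every row, and RBP4 is the only row with a value above 100 in EVT.

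Detection per cell also set Endoderm apart, but not evenly and not for RBP4. APOA1 had a count in 62 of 62 Endoderm cells and TTR in 53 (85.5%, exact binomial interval 74.2 to 93.1). HNF4A was detected in 53.2% of them, AFP in 40.3%, APOB in 38.7%, FGB in 33.9%, TF in 27.4%, FGG in 24.2% and RBP4 in 20.97%. With each cell thinned to 10000 counts, which leaves out 1 Endoderm cell, the shares were 95.1% for APOA1, 75.4% for TTR, 22.95% for HNF4A and 14.8% for RBP4. In PS and derivative, a class not known for plasma proteins, thinned shares were 8.88% for APOA1, 2.34% for TTR, 0.467% for HNF4A and 0 for AFP, TF, APOB, FGB, FGG and RBP4. Other classes were higher, with thinned shares of 17.8% for RBP4 in EVT, 25.2% for APOA1 in Extraembryonic Mesoderm and 22.4% for TTR in Neural ectoderm. The median totals per cell were 85414 counts in Endoderm and 98378.5 in PS and derivative.

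The Endoderm cells did not share 1 programme. A gene is counted as present in a cell below where it has at least 3 counts and at least 100 CPM. By that measure APOA1 was present in 58 of the 62 cells and TTR in 44. AFP was present in 16 cells, FGB in 15, APOB in 14, HNF4A in 9, RBP4 in 8, and TF and FGG in 7 each. Most Endoderm cells thus carried APOA1 with or without TTR, and the other secreted proteins were found in a minority.

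The number of the 9 genes present per cell had a gap. There were 2 cells with none, 14 with 1, 21 with 2, 11 with 3, 3 with 4 and 4 with 5. No cell had 6 or 7, 6 cells had 8 and 1 cell had all 9. These last 7 cells came from 7 libraries and 4 embryos: 1 from E18, 2 from E21, 2 from E22 and 2 from E23. This grouping was made after the values were seen and uses the genes themselves, so what follows on it is a description.

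The 7 cells held nearly all counts of several genes in the class. They carried 99.4% of the TF counts of Endoderm, 99.2% of RBP4, 98.9% of FGG, 95.5% of APOB, 93.7% of FGB, 92.7% of AFP and 84.3% of TTR. APOA1 and HNF4A were spread more widely, with 40.2% and 35.1% of their counts in these cells. TF had 4688 CPM in the 7 cells pooled and 7.21 in the other 55. RBP4 had 4253 and 9.499 CPM, FGG 2354 and 7.39, APOB 5704 and 74.4, FGB 5179 and 95.9, AFP 4918 and 107, and TTR 32968 and 1677. APOA1 stood at 20730 and 8429 CPM, and HNF4A at 62.3 and 31.5. Total counts of the 7 cells ran from 64322 to 461949 (median 183974) and of the 55 from 1912 to 544861 (median 83126).

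The 7 cells also differed among themselves. RBP4 was lowest in the cell of library 8 (E23), with 1172 CPM, and highest in that of library 12 (E23), with 12515 CPM. AFP ran from 253 CPM in the cell of library 26 to 16722 CPM in the cell of library 24 (both E21 in the annotation). TF ran from 82.5 CPM in the E18 cell of library 41 to 16182 CPM in the E22 cell of library 28. The E18 cell was thus low in TF and FGG (236 CPM) while its TTR level, 64900 CPM, was close to the highest, 66024 CPM. Without the 7 cells, 8 of the 9 genes still had their highest class level in Endoderm, and RBP4 did not: 9.499 CPM remained in Endoderm against 115 in EVT. For TF the lead was nearly gone, with 7.21 CPM against 6.89 in Extraembryonic Mesoderm (ratio 1.05). FGG had 7.39 against 4.07 CPM in Mesoderm (ratio 1.81).

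**Figure D2:**
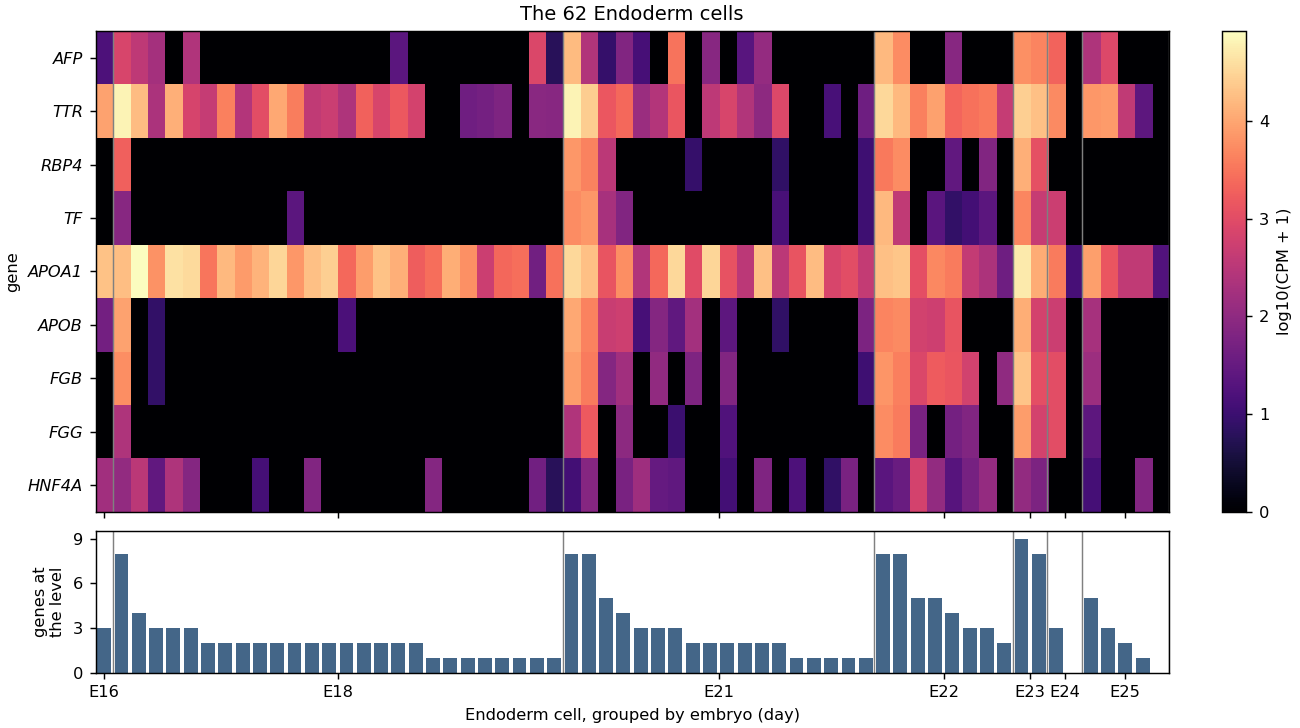
The 62 Endoderm cells (columns, grouped by embryo and ordered by the number of genes present) with the level of each gene as log10(CPM + 1); the bars below give the number of the 9 genes present (at least 3 counts and 100 CPM). APOA1 runs through nearly all columns, whereas RBP4 is highest in the 7 columns with 8 or 9 genes, and TF and FGG are high in most of these. The E18 column of the 7 has 82.5 CPM of TF and 236 of FGG. An E24 column outside the 7, a cell of 1912 counts, has 523 and 1046 CPM.

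Of 19 other plasma protein genes with a count in Endoderm, 16 had more than 50% of their Endoderm counts in the same 7 cells, as had 4 of 8 lipoprotein and uptake genes, 1 of 11 transcription factors, 1 of 11 retinol genes and 1 of 9 iron genes. The 7 cells were grouped by genes of the first kind. The share of all genes above that limit was not computed, so these counts have no background to be set against. The 7 cells were also deeper, with a median total of 183974 counts against 83126 in the other 55. The genes named here and in the next paragraph were picked from the fixed lists after their values were seen. SERPINA1, an inhibitor of neutrophil elastase, had 4360 CPM in them and 15.5 in the other 55, AHSG (fetuin-A) 2172 and 13.02, APOC3 1338 and 21.1, and PLG (plasminogen) 1087 and 10.4. FGA, which completes the fibrinogen trio with FGB and FGG, had 322 and 3.69 CPM. MTTP, which loads lipid onto APOB, had 796 and 118 CPM, and CUBN, a receptor of yolk sac uptake, 67.5 and 2.29. ALB, the albumin gene next to AFP, had only 33 counts in the 7 cells (21.2 CPM). Transcription factors went both ways between the 7 cells and the 55. FOXA1 had 69.4 and 44.2 CPM and FOXA2 39.2 and 71.2, and HHEX and SOX17, given below, were lower in the 7 cells.

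Definitive endoderm genes lay mostly in the other 55 cells. CER1, a secreted antagonist of NODAL, had 0 counts in the 7 cells, which allows up to 1.93 CPM, and 1506 CPM in the 55. CXCR4 had 3.86 and 413 CPM, HHEX, a factor of anterior endoderm, 1.93 and 139, and SOX17 21.2 and 84.4. The 5 definitive endoderm markers summed to 64.3 and 2117 CPM. CER1 was present in 16 Endoderm cells, 10 of them from E18. Of these 16 cells 15 had APOA1 present, 6 had TTR, 1 had AFP, and none had any of the other 6 genes. Markers of other cell types were also counted. The 5 EXMC markers, all detected, summed to 3159 CPM in the 7 cells and 2437 in the 55, with COL3A1 at 1232 CPM over Endoderm against 13828 in EXMC. STB markers summed to 708 and 254 CPM, EVT markers to 356 and 184, CTB markers to 56.6 and 257, blood markers to 3.21 and 18.1, endothelium markers to 97.05 and 78.1, and epiblast markers to 1.29 and 45.7. The gut endoderm list holds TTR and summed to 34126 and 2988 CPM; its other genes were EPCAM, with 1120 and 1254 CPM, CDX2, with 37.3 and 54.4, and SOX2, with 0 counts and 2.29 CPM. The part of these cell types in the levels was not tested.

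Across the 62 cells, Spearman correlations of CPM between pairs of the 9 genes ran from 0.117 to 0.858 with a median of 0.490 over 36 pairs; the highest was between FGB and APOB. Correlations of single genes with the total count of a cell lay between 0.0348 and 0.338. Cells share embryos and libraries, so these values carry no test. TF was present in 7 cells, and TTR, APOA1, APOB and RBP4 were present in each of them.

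By embryo, Endoderm cells were counted in E18 (26), E21 (18), E22 (8), E25 (5), E23 (2), E24 (2) and 1 embryo of E16 (1), and none was found in E20 or the other E16 embryo. Among the 4 embryos with at least 5 such cells, 8 of the 9 genes had their highest pooled level in E22, and APOA1 in E18. AFP had 115 CPM in E18, 747 in E21, 3935 in E22 and 335 in E25. TF had 8.54, 1422, 2616 and 0 CPM in that order. FGG had 23.4, 289, 1874 and 6.70 CPM. E25 held none of the 7 cells, and E18, with 1 of them, was lower than E25 in AFP.

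RBP4 had 189 CPM in Endoderm of E18, 1038 in E21, 2005 in E22 and 0 counts in the 5 cells of E25. APOB had 910, 1182, 2334 and 53.6 CPM, and FGB 556, 936, 2567 and 40.2. TTR varied less, with 8181, 7106, 10832 and 4446 CPM. APOA1 had 14134, 8633, 9607 and 2892 CPM, and HNF4A 38.2, 29.5, 52.2 and 13.4. In E21, 1 of the 7 cells came from library 26, whose labels disagree. Without that library E21 had 265 CPM of TF, 358 of RBP4, 566 of APOB, 406 of FGB, 19.9 of FGG, 3554 of TTR and 961 of AFP, and TF over all of Endoderm was 628 CPM.

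Libraries also differed. In the 9 libraries with at least 3 Endoderm cells, AFP ran from 0 to 5749 CPM (median 160), TTR from 425 to 23324 (median 3685) and TF from 0 to 4591 (median 0). APOB ran from 0 to 3815 CPM, FGB from 0 to 2789, FGG from 0 to 1024, and RBP4 from 0 to 2897 with a median of 0. APOA1 was found in each of the 9, from 3510 to 32011 CPM, as was HNF4A, from 4.55 to 109. With 62 cells, no fit of day within Endoderm was made.

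Outside Endoderm, 41 of 3620 cells (1.13%) had at least 3 of the 9 genes present, against 25 of 62 in Endoderm. They were annotated as EVT (14), extraembryonic mesenchyme (EXMC, 9), Extraembryonic Mesoderm (8), cytotrophoblast (CTB, 3), Mesoderm (3), Non-neural ectoderm (3) and syncytiotrophoblast (STB, 1). At a stricter level of 10 counts and 1000 CPM, 3 such cells remained, all EVT. The 41 cells were in 13 libraries, 22 of them from E23, and 19 (46.3%) had a cell with an adjacent cell number at the same measure. Cells carry a number from 1 to 96 within a library, and each of the 96 numbers occurs in more than 1 library.

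In library 8 (E23) such cells formed a run. Among the 14 cells numbered 75 to 88, 11 had at least 3 of the genes present, 10 of them outside Endoderm, and 1 was the Endoderm cell with number 84. Of the 78 other cells of the library 2 did. The 8 EVT cells within that run had 579 CPM of AFP, 1641 of TTR, 1005 of APOA1 and 96.6 of RBP4, and the 14 EVT cells outside it had 16.4, 63.2, 47.6 and 0. Without library 8, AFP in all EVT went from 4.38 to 1.35 CPM. In library 35 (E20), a library with no Endoderm cell, 3 Extraembryonic Mesoderm cells numbered 30 to 32 held 93.2% of the TF, 86.2% of the APOA1 and 83.8% of the RBP4 counts of that class in E20. Both runs were bounded by cells that had these same genes present, so higher levels inside them follow from that choice. The part of the cell number, of free RNA and of doublets in these values was not tested.

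**Figure D3:**
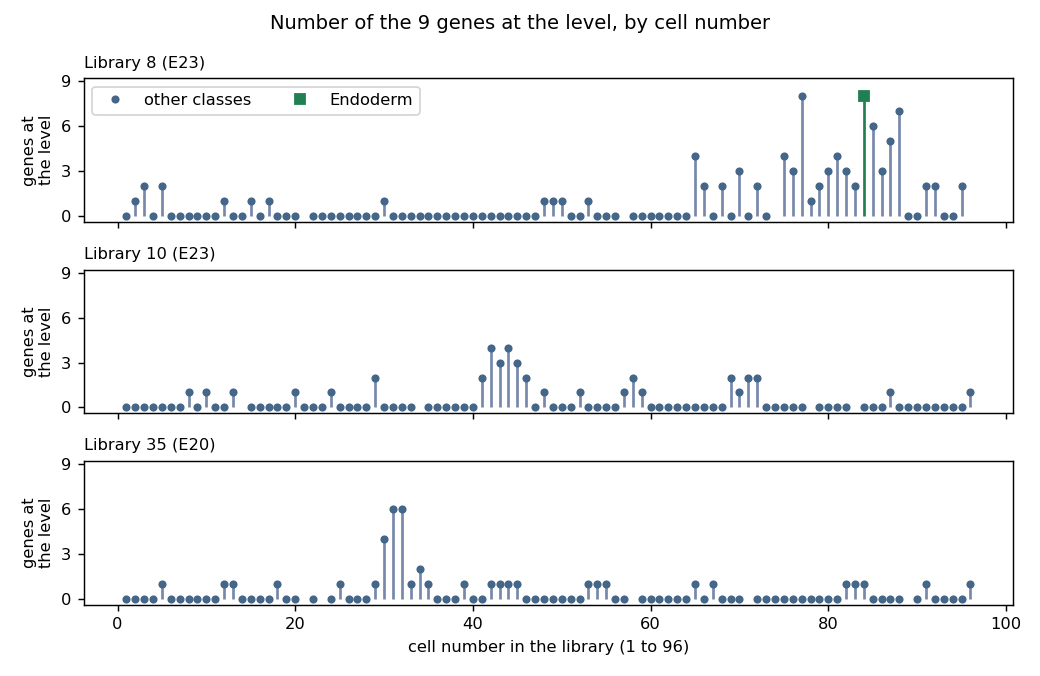
Number of the 9 genes present (vertical axis, at least 3 counts and 100 CPM) by cell number (horizontal axis) in libraries 8, 10 and 35; the green square is an Endoderm cell and blue points are cells of other classes. High values stand in runs of adjacent numbers: 75 to 88 in library 8, 42 to 45 in library 10 and 30 to 32 in library 35.

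RBP4 in EVT of E20 differed from this pattern by company, and its level in EVT differed by embryo. EVT cells are invasive trophoblast that remodel the maternal side of the placenta. In E20 the 6 libraries had 146 to 229 CPM of RBP4 in EVT (median 194, mean 193 ± 28.2 SD, n = 6). In E18 the 4 libraries with at least 5 EVT cells had 17.7, 27.03, 79.8 and 112 CPM. In E21 the values were 0 and 19.9 CPM, in E23 0 to 26.3 (median 0.929, n = 6), in E24 0 and 2.99 with 1.09 in library 27, and in E25 0, 0, 0 and 1.1504. All E20 libraries stood above every library of the other days, and E18 overlapped with E21 and E23.

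CTB, the trophoblast progenitor class, was low in the same libraries. It had 4.66 to 12.1 CPM of RBP4 in E20 and 0 to 3.83 in E18. RBP4 was higher in EVT than in CTB in all 6 libraries of E20 and all 4 of E18, and in 15 of 25 libraries with at least 5 cells of both classes; it was lower in 5 and equal in 5. All other E20 classes with at least 10 cells were also below EVT (196 CPM pooled): Extraembryonic Mesoderm had 26.5 CPM, STB 13.9, EXMC 9.31 and CTB 7.84.

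**Figure D4:**
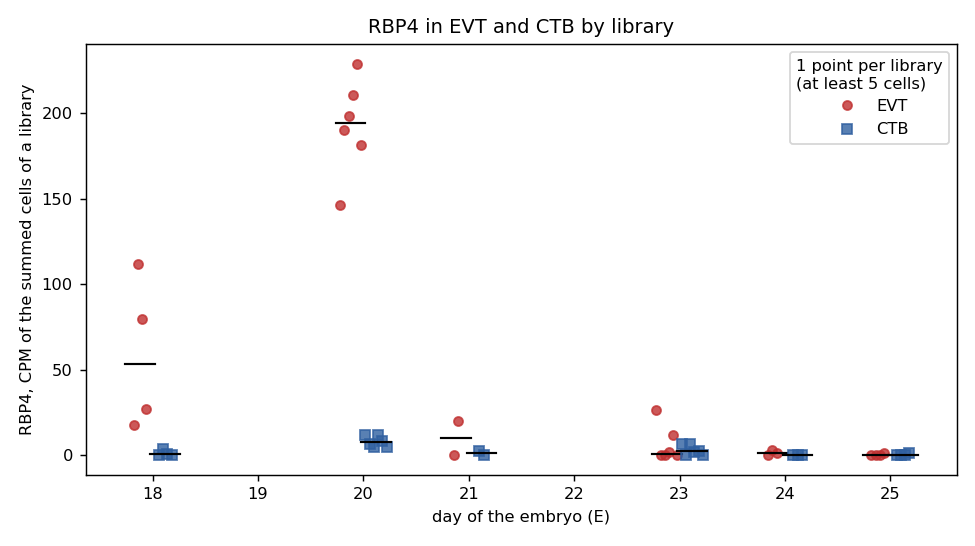
RBP4 in the summed EVT cells (red circles) and CTB cells (blue squares) of each library with at least 5 cells, in CPM, by embryonic day; black bars are medians. The 6 EVT libraries of E20 lie between 146 and 229 CPM, above all CTB libraries and all EVT libraries of other days.

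At the level of cells, RBP4 was present in 50 of 164 EVT cells of E20 (30.5%, exact binomial interval 23.5 to 38.1), 5 of 64 in E18, 6 of 146 in E23, and in none of the EVT cells of E21, E22, E24 or E25. Its level in the 50 cells had a median of 417 CPM and reached 3098. Depth differed between these embryos, with median totals of 200760 counts per EVT cell in E20, 182368 in E18, 10865 in E23 and 70428 in E25. Thinned to 10000 counts, 37.2% of E20 EVT cells had RBP4, 14.3% in E18, 16.7% in E21 (3 of 18), 13.9% in E23, 3.09% in E24 and 0 of 40 in E25, against 3.73% of CTB cells in E20.

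The other 8 genes did not accompany RBP4 in EVT of E20. Of the 50 cells, 2 had TTR present, 1 had APOA1, and none had AFP, TF, APOB, FGB, FGG or HNF4A. AFP, TF, FGG and HNF4A had 0 counts in all 50. Over all 61 EVT cells with RBP4 present, 52 had no other of the 9 genes, and 4 had 4 or more others. E23 was unlike E20: each of its 6 EVT cells with RBP4 present had at least 3 of the 9 genes present. Of these cells 4 were in library 8 and 2 in library 12. E20 had 0 Endoderm cells among 518, which allows a share of up to 0.579%.

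RBP4 counts per TTR count compare the same pair of genes between classes. The ratio was 0.110 in Endoderm and 3.51 in EVT. Within EVT it was 30.3 in E20, 2.97 in E18, 2.83 in E24 (17 and 6 counts), 0.105 in E21 and 0.0462 in E23. In Endoderm it was 0.0231 in E18, 0.146 in E21, 0.185 in E22 and 0 in E25 (0 and 1328 counts). CTB had 0.325 in all. The other classes of E20 were also above Endoderm, with 1.44 in STB, 1.25 in CTB and in EXMC, and 0.427 in Extraembryonic Mesoderm. Outside E20, so were CTB of E16 (6.5, from 13 and 2 counts), STB of E24 (1 and 1 counts), EXMC of E24 (0.722) and of E22 (0.5). Extraembryonic Mesoderm of E22 had 0.233. In the remaining embryos these classes were at or below 0.108 (EXMC of E21). The ratios of EVT in E23, E21 and E25 (0.00162, from 1 and 617 counts) lay within the range of Endoderm, and those of E18, E20 and E24 lay above it.

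**Figure D5:**
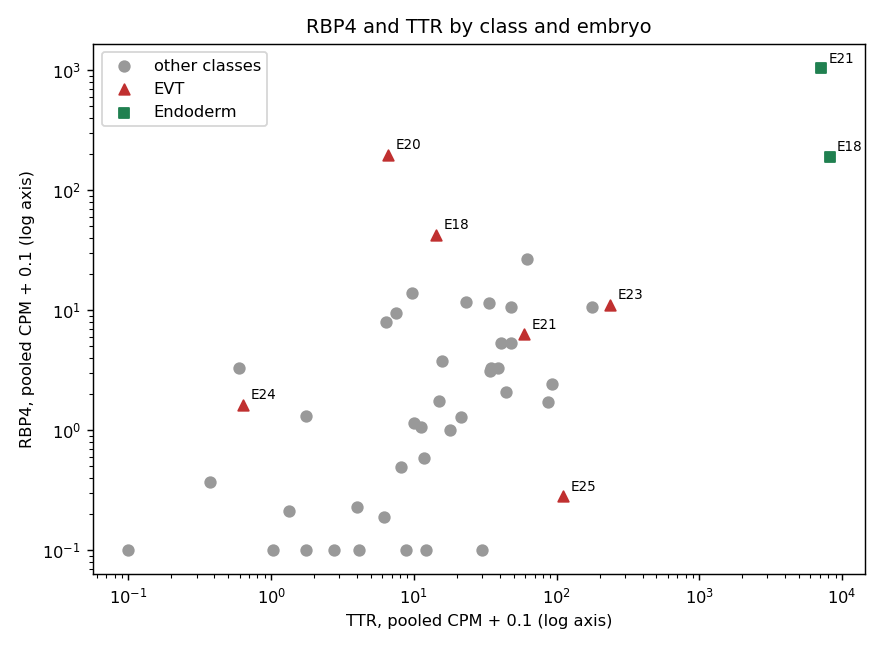
RBP4 against TTR, both as pooled CPM + 0.1 on log axes, with 1 point per class and embryo with at least 10 cells. Endoderm (green squares, E18 and E21) has both high; EVT of E20 (red triangle) has 196 CPM of RBP4 with 6.47 CPM of TTR.

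Among the fine clusters of the annotation, cluster 19 held 84 EVT cells, all of E20, with 245 CPM of RBP4 and the gene present in 37. E20 cells of other EVT clusters had it too: 200 CPM in cluster 13 (15 cells), 82.6 in cluster 7 (42) and 66.1 in cluster 23 (19). Cluster 18 had 2.17 CPM. Trophoblast and retinol genes of cluster 19 are given here after their values were seen. Of the EVT markers, NOTUM had 533 CPM, HTRA4 375, ITGA5 245, MMP2 236, ITGA1 196, ADAM12 7.63 and ASCL2 4.43. HTRA4 and MMP2 were higher in EVT cluster 23, with 2308 and 4670 CPM. Of the CTB markers, ITGA6 had 51.7 CPM, PEG10 29.2, TFAP2C 24.6, TP63 5.16 and ELF5 0 counts. Median totals were 336667 counts per cell in cluster 19 and 10199.5 in cluster 7. Of the genes that handle retinol, STRA6, the membrane receptor of the RBP4 complex, had 22.5 CPM in cluster 19, and LRAT, which esterifies retinol, 0 counts.

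Change with embryonic day was tested on counts summed per library with edgeR's quasi-likelihood test of a slope, adjusted by Benjamini-Hochberg over all genes tested. The p-values count libraries as independent, although those of a day after E16 share an embryo. Over all cells, TF was at 0 to 0.158 CPM in the 7 libraries of E16. It was at 0, 0, 0, 0.643 and 2.24 in E18, and at 0 to 12.5 in E20 (median 0.591, n = 6). In E21 it was at 0.224, 0.909, 3.31, 10.3 and 79.3.

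TF then stood at 0.264 to 250.1 CPM in E22 (median 3.42, n = 6) and 0 to 37.4 in E23 (median 4.15, n = 6). In E24 it was at 0 and 0.340, and in E25 at 0, 0, 0.790, 0.965 and 19.5. The days overlapped, and single libraries set the highest values. FGG had at most 0.272 CPM in E16, 5.51 in E18, 3.11 in E20, 4.74 in E21, 113.6 in E22, 60.6 in E23, 0 in E24 and 0.296 in E25.

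All 9 genes passed the filter on low counts in the fit over all cells, where 18.5% of 13174 genes were called and 8.25% rose. TF rose by 0.97 ± 0.31 log2 per day (SE, edgeR adjusted p = 0.0245) and FGG by 0.83 ± 0.27 (adjusted p = 0.0274), 2 of 9. AFP had a slope of 0.64 ± 0.27 (adjusted p = 0.0982) and was called by DESeq2 (0.69, adjusted p = 0.00104) and without the libraries of E25 (0.85 ± 0.26, edgeR adjusted p = 0.0273). The slopes of TTR, APOA1, APOB, FGB, RBP4 and HNF4A lay between -0.24 and 0.25, and FGB was called without library 41 (0.92 ± 0.29, edgeR adjusted p = 0.0222). Neither call was made without E16, on sums per embryo or with a term for the library code, a string of digits that opens the library name in the labels. Without E22 TF had 0.75 ± 0.29 (edgeR adjusted p = 0.0585) and was not called, and FGG did not pass the filter. Without E18 TF had 0.85 ± 0.38 (edgeR adjusted p = 0.0937) and was not called. For the 6 libraries of E23 the column names of the count table give another code than the labels, and with that code neither call was made (TF -0.63 ± 0.37, FGG -1.04 ± 0.61). Without library 28 TF had 0.71 ± 0.27 (adjusted p = 0.0602), and without library 12 FGG had 0.77 ± 0.29 (adjusted p = 0.0549). Without Endoderm cells TF had 0.61 ± 0.20 (adjusted p = 0.0249), and FGG did not pass the filter.

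Within EVT, 21 libraries of E18 to E25 with at least 10 cells entered the fit, and 3 of the 9 genes, RBP4, TTR and APOA1, passed the filter. RBP4 fell by 1.19 ± 0.21 log2 per day (edgeR adjusted p = 0.000946), in a fit where 6.88% of 9842 genes were called and 2.61% fell. The gene was chosen for its level in EVT, so its p-values here are not an independent test. The fall was not steady: over libraries with at least 5 EVT cells, the median was 53.4 CPM in E18, 194 in E20 and 0.929 in E23. Leaving out each library gave slopes from -1.32 to -1.14. Without the libraries of E20 the slope was -0.78 ± 0.17 (adjusted p = 0.0130), and without the cells of cluster 19 it was -0.98 ± 0.19 (adjusted p = 0.00549). With sums per embryo it was -1.17 ± 0.29 (adjusted p = 0.518), and with a term for the library code -5.86 ± 3.24 (adjusted p = 0.606), neither of which was a call. TTR had 0.56 ± 0.21 (adjusted p = 0.114) and APOA1 0.10 ± 0.20 (adjusted p = 0.834). TTR was called as rising without library 41 of E18 (1.04 ± 0.25, edgeR adjusted p = 0.0130), without all libraries of E18 and without those of E24.

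In the other classes with enough libraries none of the genes was called by edgeR. In CTB, 3 genes were tested and 0 called, against 3.36% of all genes, with 0 at an unadjusted p under 0.05. RBP4 had a slope of -0.38 ± 0.26 there (adjusted p = 0.447); whether it differs from the EVT slope was not tested. In EXMC, 4 genes were tested and 0 called, against 1.73% of all genes, with 0 at an unadjusted p under 0.05. In Extraembryonic Mesoderm, 8 were tested and 0 called, against 2.12%, also with 0 unadjusted. DESeq2 called 0 in each of these classes. APOA1 in EXMC was called with the code of the column names as a term (-0.86 ± 0.20, edgeR adjusted p = 0.00637). Slopes of APOA1, APOB, FGB, RBP4 and TF in Extraembryonic Mesoderm were all negative and turned positive without library 35, the library with the run of 3 cells; RBP4 went from -0.73 ± 0.52 to 0.36 ± 0.47.

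EVT and CTB were compared within 18 libraries that held at least 10 cells of each. RBP4 was 3.90 ± 0.64 log2 higher in EVT, a value given with no test since the gene was chosen for it; in the E20 libraries alone it was 4.82 ± 0.27. TTR and APOA1 were the only others of the 9 that passed the filter, and neither was called by edgeR, with 2 at an unadjusted p under 0.05 and 32.4% of all genes called. TTR had 1.48 ± 0.68 (adjusted p = 0.102) and APOA1 1.14 ± 0.54 (adjusted p = 0.112), and DESeq2 called TTR. Without the libraries of E20 both were called higher in EVT, TTR by 2.24 ± 0.66 (adjusted p = 0.0208) and APOA1 by 2.27 ± 0.65 (adjusted p = 0.0170). In E20 alone they had -0.27 ± 1.31 and -0.37 ± 0.49. The scaling shifts all genes: the median over genes was -0.14 in this fit and 0.38 in DESeq2.

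Genes of related function gave the setting. Of 26 further plasma protein genes 22 were in the table, and 17 of these had their highest level in Endoderm, against 9.26% of all 20458 genes with a count. The 4 with the highest level there were SERPINA1 (949 CPM), APOE (938), AHSG (477) and APOC3 (304), each highest in Endoderm. Among 14 endoderm and liver transcription factors 7 were highest in Endoderm, with HHEX at 110 CPM, SOX17 at 70.8, FOXA2 at 64.4 and FOXA1 at 49.6. Among 9 genes of lipoprotein assembly and uptake 5 were, with MTTP at 264 CPM, DAB2 at 112, LRP2 at 95.3 and TM6SF2 at 20.9. Of 12 retinol genes 1, DHRS3 (78.6 CPM), was highest in Endoderm; CRABP2 (671), CRABP1 (137) and CYP26A1 (116) were higher in another class. Of 10 iron genes none was, with FTL at 3611 CPM, FTH1 at 1236, HMOX1 at 159 and TFRC, the transferrin receptor, at 108.

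The same lists were followed with day over all cells by edgeR. In that fit 8.25% of all genes tested rose and 10.2% fell, and on sums per embryo no gene was called. Of 12 plasma protein genes tested F5, a clotting factor, rose (0.34 ± 0.07 log2 per day, adjusted p = 0.000353), and the list's median slope was 0.14 against 0.00 over all genes. Of 8 transcription factors 3 fell: SOX17 (-0.33 ± 0.10), FOXA2 (-0.43 ± 0.13) and FOXA3 (-0.33 ± 0.09), with a median of -0.08. Of 7 lipoprotein and uptake genes DAB2 (0.21 ± 0.04) and LRP2 (0.19 ± 0.06) rose. Among retinol genes DHRS3, RARB and CRABP1 rose, and RDH10 and ALDH1A2, a retinoic acid synthase, fell, with ALDH1A2 at -0.47 ± 0.10. No iron gene of 9 was called.

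In EVT, 4.27% of all genes tested rose and 2.61% fell, and on sums per embryo no gene was called. There 1 of 7 retinol genes tested was called: CRABP1, a retinoic acid binding protein, rose (0.86 ± 0.18 log2 per day, edgeR adjusted p = 0.00563). APOE rose (0.48 ± 0.08, adjusted p = 0.000677), as did F5, 2 of 4 plasma protein genes tested. LRP2 and DAB2, which act together in endocytosis, rose (0.45 ± 0.10 and 0.31 ± 0.08). TFRC and SLC40A1, the importer of transferrin iron and the iron exporter, rose, 2 of 7 iron genes. Against CTB, EVT had higher CRABP2 (2.03 ± 0.51 log2) and lower LRP2 (-2.71 ± 0.37).

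Likeness was measured as Pearson's r of log2(CPM + 1) over 112 sums of a library and class with at least 10 cells, which hold no Endoderm sum, against 7792 genes with a mean of at least 10 CPM. TTR was the closest gene to AFP (0.69), TF (0.58), APOB (0.78), FGB (0.75), FGG (0.46) and APOA1 (0.71), and APOA1 was the closest to TTR and to HNF4A (0.40). The third gene was TMEM37 for AFP (0.42), APOB (0.39) and FGG (0.41), and TLCD4 for FGB (0.43). For TTR the next were RDH5 (0.42) and ZNF585A (0.41), and for APOA1 MAGED1 (0.48) and HUNK (0.42). RBP4 stood apart from this, with HMOX2 (0.65), MMP12 (0.63) and ENSMFAG00000002889 (0.61) as its closest genes. The sums share libraries and cell classes.

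Some of these genes are neighbours in the RefSeq gene order of the T2T-MFA8v1.1 assembly, which was used for names and order only. AFP lies between AFM and ALB, APOA1 next to APOC3 and APOA4, and FGB and FGG lie on either side of FGA, with LRAT after FGG. The pooled Endoderm levels of these neighbours were 4.83 CPM for ALB, 304 for APOC3, 128 for APOA4, 72.1 for FGA and 0.967 for LRAT.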

How the data were processed

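Single cells of cultured cynomolgus monkey embryos were measured by RNA sequencing. The deposited table holds raw counts per gene and cell, made by the authors with cutadapt 1.15, STAR 2.6.0a and HTSeq 0.10.0, per the submitters' processing notes. Cell classes, clusters and embryos came from the authors' deposited annotation. No doublet caller was run. How the authors treated doublets, which build they aligned to and whether 1 count is a read or a molecule was not stated in the labels or files read here. Reads of near-identical gene copies may have been lost or shared by the counting.

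Counts were pooled per class, embryo or library and scaled to CPM. For fits, counts were summed per library, and per library and class with at least 10 cells, from the 42 libraries whose labels name 1 day. edgeR 4.0.16 (TMM, its filter on low counts, quasi-likelihood test, R 4.3.3) tested a slope of embryonic day, and EVT minus CTB with the library as a block; DESeq2 1.42.0 was an alternative. Genes with an adjusted p under 0.05 are called. The fits were tested on simulated data. Nothing says that libraries came from separate animals, so p-values measure the spread between libraries. Other steps used Python 3.11.15 with pandas 2.3.3, numpy 2.4.6, scipy 1.17.1 and matplotlib 3.10.9. Intervals are 95% Poisson (levels) or Clopper-Pearson (shares) and cover counting error only. Library totals of 4393315 to 30568931 counts set the precision.

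All 9 genes are named. Genes of the lists are named where among the 4 with the highest Endoderm level of their list, where called in a fit, or where the text says that they were picked later. Some genes that these rules would name are not reported here. The genes and lists were chosen with earlier results of these data known. The alternatives were another normalization, no filter, a stricter cell minimum, leaving out libraries, days or cells, a term for the library code (as in the labels, or in the column names, which differ for E23) and sums per embryo; those that leave out a day other than E16, library 8, the 7 Endoderm cells, Endoderm cells or cluster 19, or take the code from the column names, were chosen after seeing the data.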

Additional observations from a re-analysis of the deposited data

Results flagged for a closer look

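Within a day, 1 library often stood far from the others of its group. Of 27 sets of 4 to 10 libraries checked, 18 had such a library by Dixon's 95% limit. For independent sets of normally distributed values, chance gives about 1 in 20. That comparison does not hold here, since sets share libraries and many values are skewed and near 0. In 7 of the 18, all other libraries were at 0, so that any count at all sets the library apart.

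In Endoderm of E18, library 41, the one with a cell holding 8 of the 9 genes, stood above the other libraries with 21242 CPM of TTR, 27.7 of TF, 2955 of APOB, 1807 of FGB, 76.0 of FGG and 614 of RBP4. Library 43 stood above the others for APOA1 with 32011 CPM. In EVT of E25, library 22 was the only one with RBP4, at 1.1504 CPM from 1 count.

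Over all cells, TF had 1 library apart in each of 7 days: 0.158 CPM in library 1 (E16), with 0 in the others, and above nonzero neighbours 2.24 in library 41 (E18), 12.5 in library 35 (E20), 79.3 in library 24 (E21), 250.1 in library 28 (E22), 37.4 in library 12 (E23) and 19.5 in library 22 (E25). Of these, libraries 41, 24, 28 and 12 held 1 of the 7 Endoderm cells described above. FGG had 5.51 CPM in library 41, 3.11 in library 35 and 60.6 in library 12.

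The libraries whose labels disagree entered no comparison of days. Library 26 had more than 3 counts of 9 of the genes and library 27 of 7.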

How the results depend on the processing

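The highest class stayed Endoderm for all 9 genes under 3 planned ways of pooling and without library 8. At the stricter level 3 cells outside Endoderm remained instead of 41. The counts of called genes moved most. Over all cells, 2435 genes were called, 1087 without E16, 1027 with the code term, 1338 with the code of the column names, 0 on sums per embryo and 1895 to 2577 without 1 library. In EVT, 677 were called, 1488 by DESeq2, 2047 with no filter, 56 with the code term, 0 per embryo, 1378 with at least 20 cells, 1517 without E18, 276 without E20, 83 without E25, 287 without cluster 19, and 379 to 806 without 1 library. In CTB, 363 were called, 906 by DESeq2, 1200 with no filter, 741 without E16, 85 with the code term, 0 per embryo, 2445 with at least 20 cells, and 192 to 741 without 1 library. In EXMC, 190 were called, 448 by DESeq2, 1008 with no filter, 57 without E16, 536 with the code term, 721 with that of the column names, 0 per embryo, 339 with at least 20 cells, and 72 to 245 without 1 library. In Extraembryonic Mesoderm, 248 were called, 796 by DESeq2, 55 with the code term, 2 per embryo, 532 with at least 20 cells, and 109 to 1393 without 1 library (1393 without library 41). For EVT minus CTB, 3103 were called, 1752 without E20, and 2801 to 3109 without 1 library. Of called EVT slopes 62.04% were higher, against 72.8% with RLE scaling. The causes were not tested.

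Of the 9 genes, 2 were called over all cells, 0 without E16, with the code term or per embryo, and 1 to 3 without 1 library. The filter left 8 of them without E18, E22 or E23, and 7 without E21 or Endoderm cells. Of those left, 0 were called without E22 and 1 in each of the other settings. DESeq2 gave TF no adjusted p. With the code of the column names 0 were called over all cells and in EVT, and 1 in EXMC (APOA1). In EVT 1 was called, 2 by DESeq2, with at least 20 cells, without E18 or without E24, 4 with no filter, 0 with the code term or per embryo, and 1 to 2 without 1 library. The RBP4 slope there was -5.86 with the code term and -1.17 per embryo, neither called, and -1.32 to -1.14 without 1 library. In Extraembryonic Mesoderm 2 were called with at least 20 cells, APOA1 and APOB, both lower. Beside RBP4, 0 were called in EVT minus CTB, 1 by DESeq2, 2 with no filter and 2 without E20; RBP4 itself had 3.73 to 4.22 without 1 library. Without 1 library, 0 to 0 were called in CTB, EXMC, Extraembryonic Mesoderm and EVT minus CTB.

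Slopes that turned direction over all cells were those of TF (-0.36), FGB (-0.43), FGG (-0.33), RBP4 (-0.71) and APOB (-0.68) with the code term, of TF (-0.63), AFP (-0.29), FGB (-0.83), FGG (-1.04), RBP4 (-1.27) and APOB (-1.002) with the code of the column names, and of FGB (-0.15), RBP4 (-0.62) and APOB (-0.39) without E16. APOB also had -0.018 without E20, -0.080 without E22 and -0.0073 per embryo, and RBP4 had -0.049 without E22. Without Endoderm cells RBP4 had -0.55, APOA1 0.021 and TTR 0.24. Without E18 APOA1 had 0.14 and TTR 0.32, and TTR had 0.057 without E25. APOA1 in EVT had -0.061 without E20 and -0.17 without E23, and in CTB 2.21 with the code term and 0.035 with at least 20 cells. RBP4 in EXMC had 0.012 per embryo. AFP in Extraembryonic Mesoderm had -0.85 with the code term, -0.13 per embryo and -0.89 with at least 20 cells. In E20 alone, EVT minus CTB was -0.37 for APOA1 and -0.27 for TTR.

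Leaving out 1 library turned other slopes, most often without library 41 or 35. Over all cells the range was -0.11 to 0.14 for RBP4, -0.083 to 0.66 for APOB, -0.098 to 0.0075 for HNF4A and -0.089 to 0.26 for TTR. In EVT APOA1 ran from -0.0052 to 0.48, in CTB TTR from -0.051 to 0.42, and in EXMC RBP4 from -0.14 to 0.027 and TTR from -0.072 to 0.073. In Extraembryonic Mesoderm the ranges were -0.86 to 0.31 for TF, -0.14 to 2.06 for AFP, -0.34 to 0.29 for FGB, -1.10 to 0.36 for RBP4, -0.87 to 0.12 for APOA1 and -1.19 to 0.078 for APOB, and each upper value came without library 35.

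EVT and CTB of a library form the pair, so the main comparison held a replicate block for the library. With no replicate block 2252 genes and 2 of the 9, APOA1 (2.30) and TTR (2.64), were called. No paired analysis was possible for the slopes because each library number occurs on 1 day only. With 62 Endoderm cells, and 200 of 3682 cells below 10000 counts, levels within Endoderm rest on few cells.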

Other observations

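Low levels of some of the genes were found in embryonic classes. TTR had 87.3 CPM in Neural ectoderm of E22, with a count in 30 of 57 cells and the gene present in 8. AFP in EPI had 25.04 CPM in E18, 13.8 in E21 and 32.05 in E25. In Extraembryonic Mesoderm TTR had 21.3 CPM in E18, 62.1 in E20, 176 in E21 and 15.7 in E22.

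Cells of other classes had higher levels in the 22 libraries that also held an Endoderm cell than in the 22 that did not, as medians over libraries. TTR had 21.5 against 4.46 CPM, APOA1 29.5 against 9.84 and AFP 2.29 against 0.146. The split follows embryos in part: no library of E20 held an Endoderm cell, and every library of E18 and E21 did. Embryo and day are therefore not separated from it in these medians. The part of free RNA and of the mix of classes in these values was not tested.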
